A study of Mus musculus with 2 samples.

Results

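The 9 genes described here, out of 32285 in the deposited gene table, regulate or mark the making of fat cells. Cebpb, Cebpd, Cebpa and Pparg encode transcription factors of adipogenesis, Gdf10, Dlk1 and Adipoq encode secreted or membrane proteins tied to it, and Pdgfra and Pdgfrb encode the receptors of platelet-derived growth factor (PDGF). All 9 were found by their symbol, each in 1 row, and all had UMIs (unique molecular identifiers, each counted as 1 captured transcript) in both libraries. Single-cell 3' RNA-seq was done on the stromal vascular fraction of mouse epididymal white adipose tissue (eWAT), the cells that pellet when floating adipocytes are spun off digested fat. The knockout library came from a conditional deletion of Camk2d, which encodes the delta subunit of the kinase CaMKII, in myeloid cells, and the other library from the wild type. Both groups were fed a high-fat diet for 10 weeks. The driver of the deletion, the age and sex of the animals and whether animals were pooled are not given in the sources used here. With 1 library per genotype there was no replicate, so no difference was tested: every interval is a 95% interval for counting error only and does not cover the spread between animals.

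Preadipocytes turn into fat cells in steps. CEBPB and CEBPD appear first, in response to hormones and inflammatory signals, and switch on PPARG and CEBPA, which sustain each other and the fat cell programme, including the hormone adiponectin (Adipoq). PDGFRA marks most adipose progenitors, PDGFRB marks a subset of them and the mural cells around vessels, and DLK1 and GDF10 are known from mice as brakes on adipogenesis.

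The knockout library held 10631 barcodes and 87015918 UMIs (median 7385 per barcode), and the wild-type library 15555 barcodes and 75436677 UMIs (median 3094). Barcodes with at least 500 UMIs and 200 genes and at most 20% mitochondrial UMIs were kept, 9635 knockout and 15332 wild-type. They were placed in 15 cell classes by marker genes that include none of the 9, which left 1919 knockout barcodes (19.9%) and 5606 wild-type barcodes (36.6%) in no class and 403 and 440 in several. Barcodes in no class had a median of 1155 UMIs in the knockout, under the lowest wild-type barcode, and 1832 in wild type. A barcode in several classes, as a doublet would be, was left out. Progenitor-like cells (fibroblast collagens, Dcn, Lum, Dpt and others) numbered 4059 in the knockout library and 3943 in wild type, with a median of 10449 and 5920 UMIs. Macrophage-like cells numbered 1144 and 2275, and 8 of the 15 classes had at least 50 cells in both libraries. A label field names embryonic hindlimb, but fat progenitors, macrophages and a few adipocyte-like barcodes were present. Camk2d itself was lower in the macrophage-like cells of the knockout library, at 26.5 CPM (UMIs of the gene per 1000000 UMIs of the class) against 46.3 CPM in wild type, a log2 ratio of -0.81 (-0.98 to -0.64), and near level in progenitor-like cells (91.2 against 97.2 CPM). The libraries shared 48 barcode sequences. As a gauge of free RNA, the progenitor markers took a median of 0.0356% of the UMIs of T-like cells in the knockout and 0.159% in wild type. For each class a matching level was therefore computed, the level a gene would have if it came along with the class's progenitor-marker UMIs at the ratio seen in progenitor-like cells.

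Cebpb (ENSMUSG00000056501, plus strand of mm10 chromosome 2, 167688915 to 167690418), the early factor of the cascade and a regulator of inflammatory genes in macrophages, had UMIs in all 8 large classes of both libraries. In macrophage-like cells it stood at 742 CPM (729 to 756) in knockout cells and 340 CPM (332 to 349) in wild-type cells, 49.3 and 29.4 times the matching level. Progenitor-like cells followed, with 671 CPM (663 to 678) in the knockout and 289 CPM (282 to 295) in wild type. The macrophage-like and progenitor-like intervals did not overlap within either library, so macrophage-like cells stood above progenitor-like cells in both. Among the small classes, neutrophil-like cells reached 4054 CPM in the knockout (23 cells) and 1304 CPM in wild type (6 cells), and monocyte-like cells 1631 and 878 CPM. Dendritic-like cells had the least among the 8 large classes, at 69.2 and 41.7 CPM.

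Cebpd (ENSMUSG00000071637, plus strand of chromosome 16, 15887286 to 15891031), its early partner, was instead concentrated in progenitor-like cells, at 2260 CPM (2246 to 2275) in the knockout and 804 CPM (793 to 815) in wild type. These cells held 90.8% of all Cebpd UMIs of the knockout and 76.1% of those of wild type. Blood endothelial-like cells had 219 and 169 CPM, 5.2 and 3.63 times the matching level, and macrophage-like cells 132 and 98.5 CPM, 2.6 and 3.06 times it. In T-like, natural killer-like and B-like cells Cebpd lay between 46.1 and 64.1 CPM, at 1.13 to 1.47 times the matching level. At an equal depth of 2000 UMIs per cell, 85.9% of progenitor-like cells had a Cebpd UMI in the knockout and 56.8% in wild type, against 7.68% and 14.5% of T-like cells.

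Pparg (ENSMUSG00000000440, plus strand of chromosome 6, 115360951 to 115490399), the nuclear receptor that drives fat storage, was highest outside the progenitors. Blood endothelial-like cells held 150 CPM (125 to 178, 130 UMIs) in the knockout and 130 CPM (103 to 162, 79 UMIs) in wild type. Among the 8 large classes macrophage-like cells followed with 30.5 and 25.9 CPM and progenitor-like cells with 15.8 and 13.7 CPM, and the intervals of these 3 classes did not overlap within either library. Adipocyte-like barcodes had 9 and 4 Pparg UMIs, at 170 CPM (77.6 to 322) and 61.4 CPM (16.7 to 157), mural-like cells 6 and 1, and innate lymphoid-like cells 4 and 8, at 26.8 CPM (7.31 to 68.7) and 48.3 CPM (20.9 to 95.3). At equal depth 3.22% of progenitor-like cells in the knockout and 2.7% in wild type had a Pparg UMI, against 0 of 367 B-like cells in the knockout, which allows a share of up to 0.817%, and 0.855% of B-like cells in wild type. T-like cells, at 0.486% and 1.38%, are no blank for Pparg, since regulatory T cells of visceral fat are known to use it.

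Cebpa (ENSMUSG00000034957, plus strand of chromosome 7, 35119293 to 35121928), the partner of PPARG and a factor of myeloid development, was highest in macrophage-like cells at 97.8 CPM (92.9 to 103) in the knockout and 74.9 CPM (70.9 to 79.0) in wild type. Progenitor-like cells had 32.1 and 23.3 CPM. T-like and B-like cells had 5.11 and 2.38 CPM in the knockout, against 15.6 and 13.1 CPM in wild type, the same direction as that gauge of free RNA. The matching level covers RNA of progenitors and not that of macrophages, and the part of free RNA here was not tested. Adipocyte-like barcodes reached 189 CPM on 10 UMIs and 230 CPM on 15.

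The RefSeq table of promoters (build GRCm38.p6, the same assembly as mm10) gave windows for 7 of the 9 members, and none is shown for Cebpd and Pdgfrb. Within the 250 bases before each start, the C/EBP motif TTNNGCAA, on either strand, was found at 1 of the 3 Pparg starts and at Pdgfra, and it occurs in 9.56% of all 32851 promoters of that length. The downstream Pparg start, known as that of the fat-cell form PPARG2, held it at 2 places, 215 to 208 and 16 to 9 bases before the start, and the CCAAT box (CCAAT on either strand, in 33.8% of promoters) at 2 more. Both promoters are shown because they are the members' windows with a match to the family of Cebpb and Cebpd; capitals mark the C/EBP and CCAAT matches.
Pparg, downstream start, chr6:115421816-115422065, plus strand: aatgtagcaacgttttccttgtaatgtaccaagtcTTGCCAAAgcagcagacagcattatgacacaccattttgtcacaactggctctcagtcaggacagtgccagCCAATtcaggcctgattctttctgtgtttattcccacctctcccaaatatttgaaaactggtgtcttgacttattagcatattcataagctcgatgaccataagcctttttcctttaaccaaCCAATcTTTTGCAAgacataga
Pdgfra, chr5:75152001-75152250, plus strand: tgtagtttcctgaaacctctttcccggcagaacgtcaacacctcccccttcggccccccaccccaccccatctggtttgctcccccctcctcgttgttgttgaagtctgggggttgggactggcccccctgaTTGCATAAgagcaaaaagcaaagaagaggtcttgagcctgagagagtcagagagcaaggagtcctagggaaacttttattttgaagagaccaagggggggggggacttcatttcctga
A match of letters is not a bound site, and reads from the 3' end do not tell the Pparg starts apart. No other member's window held TTNNGCAA. The searches for AP-1 (TGANTCA, 6.75% of promoters), the cAMP response element (TGACGTCA, 1.55%), NF-kB (by its 10-letter motif, 1.21%), STAT (TTCNNNGAA, 7.02%) and the PPAR direct repeat (0.0335%) found no match in any member's window.

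Pdgfra (ENSMUSG00000029231, plus strand of chromosome 5, 75152292 to 75198215), the receptor that marks adipose progenitors, was at 546 CPM (539 to 553) in progenitor-like cells of the knockout and 353 CPM (346 to 361) in those of the wild type. In the 7 other classes with at least 50 cells it lay between 9.15 and 53.5 CPM, at 0.854 to 1.81 times the matching level. Pdgfrb (ENSMUSG00000024620) stood at 155 CPM (151 to 159) in the progenitor-like cells of the knockout and 157 CPM (152 to 162) in those of the wild type. The few mural-like cells, 9 and 6, held 989 CPM (693 to 1369, 36 UMIs) and 851 CPM (453 to 1456, 13 UMIs), which placed them above the progenitors in both libraries. Blood endothelial-like cells had 23.1 CPM on 20 UMIs in the knockout, 7.99 times the matching level, and 8.21 CPM on 5 UMIs in wild type, 0.905 times it.

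Gdf10 (ENSMUSG00000021943, plus strand of chromosome 14, 33923587 to 33937983), a secreted protein of the BMP family, was likewise a transcript of progenitor-like cells, with 197 CPM (193 to 202) in the knockout and 118 CPM (114 to 123) in wild type. In the 7 other large classes it lay between 3.18 and 19.3 CPM, at 0.881 to 2.09 times the matching level. Dlk1 (ENSMUSG00000040856, plus strand of chromosome 12, 109452823 to 109463336), a Notch-related protein also called preadipocyte factor, was close to undetected. The knockout library had 27 Dlk1 UMIs in 4 barcodes, 14, 11, 1 and 1, and the wild type 1 UMI. The 2 barcodes with 14 and 11 UMIs were inflamed progenitor-like cells (defined below), with 17 and 46 UMIs of Ptx3 and 31 and 58 of Cxcl1, so the difference between libraries rested on 2 cells.

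Adipoq (ENSMUSG00000022878, plus strand of chromosome 16, 23146536 to 23158028), the hormone made by mature adipocytes, had 138 UMIs in the knockout and 232 in wild type. Adipocyte-like barcodes, 14 and 12 in number, held 25 UMIs (472 CPM, 305 to 696) in the knockout and 95 UMIs (1458 CPM, 1180 to 1783) in wild type. A single wild-type barcode held 87 of those 95, with 57 UMIs of the lipid droplet gene Plin1 and 950 of Car3. Among the 8 large classes blood endothelial-like cells had the highest Adipoq level, on few UMIs. It was 9.22 CPM (3.98 to 18.2, 8 UMIs) in the knockout and 8.21 CPM (2.66 to 19.2, 5 UMIs) in wild type. Macrophage-like cells, 1144 and 2275 in number, held 46 Adipoq UMIs (2.92 CPM) in the knockout and 30 (1.67 CPM) in wild type. The knockout count exceeded that of its adipocyte-like barcodes, but at a far lower level. Barcodes in several classes held 33 and 18. Progenitor-like cells had 6 Adipoq UMIs among 4059 cells in the knockout, against 24 among 3943 in wild type. These levels, 0.142 and 0.994 CPM, stood beside 28.4 and 25.1 CPM for all 10 mature adipocyte markers together, of which none was at 0 UMIs in either library. Whether those UMIs came from the cells or from free RNA was not tested.

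**Figure D1:**
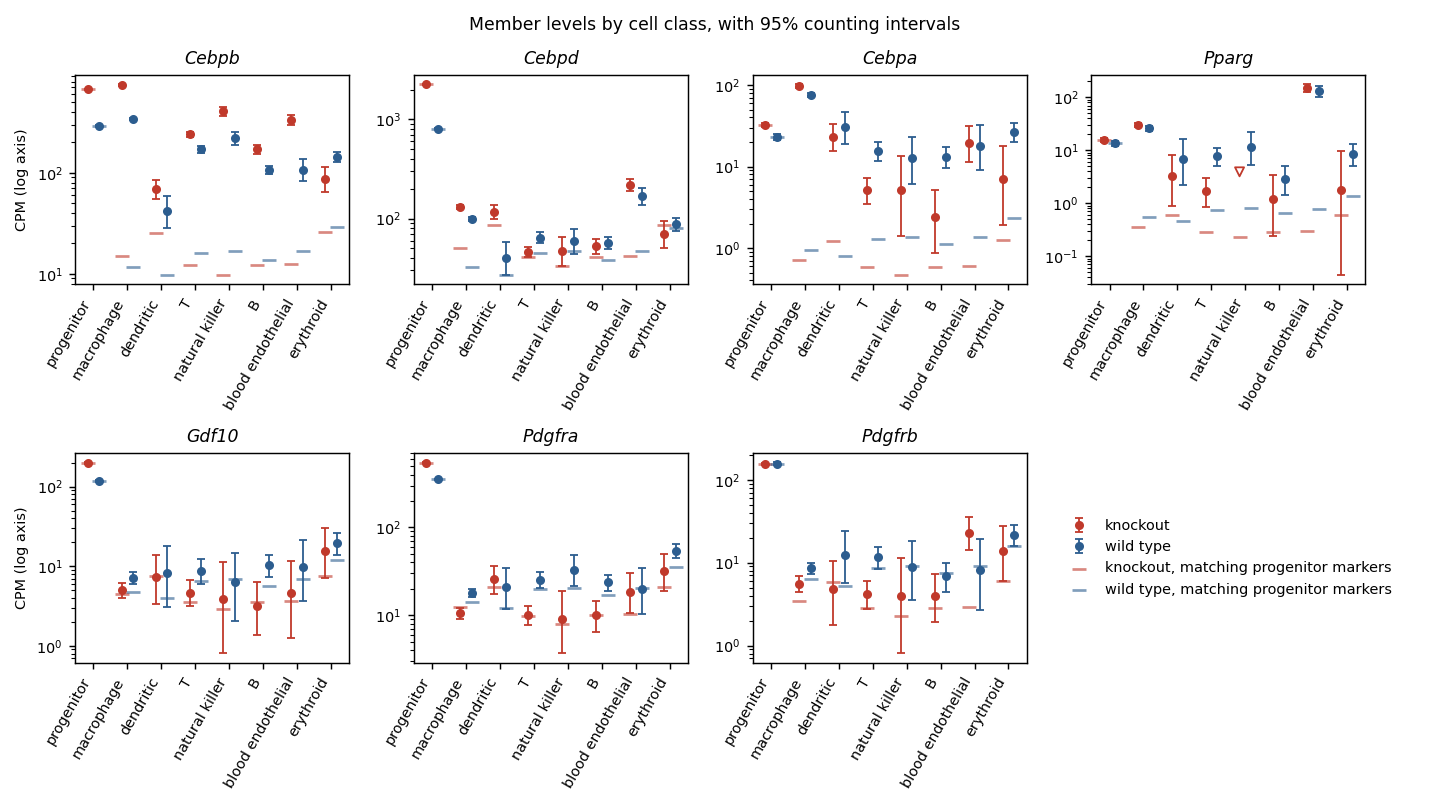
CPM (log axis) of 7 members in the 8 classes with at least 50 cells in each library, knockout (red) left of wild type (blue). Bars are 95% counting intervals, dashes the level matching the class's progenitor markers, and an open triangle the level that a count of 0 allows (3 counts). Pdgfra and Gdf10 lie near the dashes outside progenitors, while Cebpb lies far above them in macrophages (742 and 340 CPM).

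Progenitor-like cells were split by marker genes into gates, in this order. Interstitial cells carried Dpp4, Pi16 and related genes of the least committed layer, inflamed cells Ptx3, Cxcl1, Ccl2, Il6 and related genes, and quiescent committed cells Col15a1, Col4a1, Lpl, Fabp4 and others without the inflamed set. The knockout library had 602 interstitial cells (14.8% of its progenitor-like cells), 1539 inflamed (37.9%), 1471 quiescent committed (36.2%) and 447 others. The wild-type library had 1121 interstitial (28.4%), 218 inflamed (5.53%), 2057 quiescent committed (52.2%) and 547 others. A share of inflamed cells this different enters every level pooled over progenitors, so the gates are given beside them. Cells passing both the interstitial and the inflamed limits, 347 knockout and 131 wild-type, were counted as interstitial. Many cells lay near a limit: 230 knockout and 66 wild-type inflamed cells were within 20% above the marker share required.

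In interstitial cells all 7 members with enough UMIs were lower than in the other progenitor-like cells of the same library, in both libraries. Gdf10 showed it most, with 37.6 CPM in knockout interstitial cells against 230.1 CPM in the other progenitors of that library (log2 -2.61, -2.79 to -2.44) and 29.5 against 165 CPM in wild type (-2.49, -2.68 to -2.30). Pparg had 5.02 against 18.0 CPM in the knockout (-1.84, -2.37 to -1.36) and 5.27 against 18.2 CPM in wild type (-1.79, -2.28 to -1.32). Pdgfrb differed by -1.38 and -1.75, Cebpa by -1.24 and -0.84, Pdgfra by -0.90 and -0.62, Cebpd by -0.52 and -1.01 and Cebpb by -0.10 and -0.22 on the log2 scale, knockout first.

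Quiescent committed cells showed the reverse for 5 members. Gdf10 was at 263 CPM in the knockout and 173 CPM in wild type (log2 over the other progenitors 0.68 and 1.45), Pdgfrb at 202 and 224 CPM (0.63 and 1.34), Pparg at 21.9 and 19.3 CPM (0.79 and 1.24), Cebpa at 41.8 and 27.8 CPM (0.62 and 0.56) and Pdgfra at 625 and 421 CPM (0.31 and 0.56). Cebpb was lower there, at -0.61 and -0.21. Cebpd went opposite ways, -0.11 in the knockout and 0.56 in wild type. The other progenitors it was set against were mostly inflamed in the knockout and mostly interstitial in wild type.

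Inflamed cells had the most Cebpb and Cebpd of the gates in both libraries. Cebpb was at 866 CPM in the knockout (0.69 over the other progenitors, 0.65 to 0.72) and 555 CPM in wild type (1.05, 0.95 to 1.15). Cebpd was at 2622 CPM (0.38) and 1346 CPM (0.82). The remaining 5 members lay between 0.01 and 0.24 in the knockout and between 0.07 and 0.62 in wild type. For Gdf10 the direction turned when cells passing both limits went to the inflamed instead of the interstitial gate, at -0.26 in the knockout and -0.17 in wild type. The same change turned Pdgfra in the knockout (-0.11) and Pdgfrb in wild type (-0.23), and thinning to 2000 UMIs turned Pparg in wild type (-0.23).

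The F3 gate (F3, the gene of CD142, with Clec11a, Fmo2 and Mgp), which marks progenitors described in mice as holding back adipogenesis, overlaps the others and held 510 knockout and 336 wild-type cells. Gdf10 was higher there in both libraries, at 289 CPM in the knockout (0.66 over the other progenitors, 0.59 to 0.74) and 191 CPM in wild type (0.80, 0.66 to 0.94). Pparg went opposite ways, 10.6 CPM in the knockout (-0.66, -1.05 to -0.28) and 19.8 CPM in wild type (0.61, 0.15 to 1.04).

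**Figure D2:**
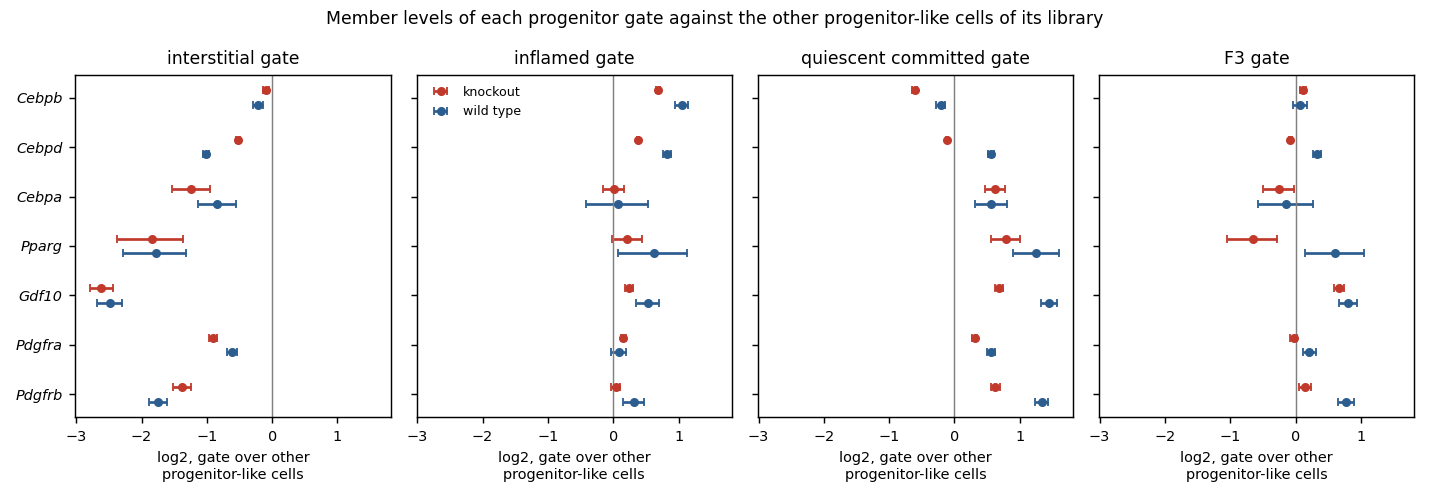
Log2 ratio of the CPM of 7 members in each progenitor gate over the other progenitor-like cells of the same library, with 95% counting intervals, knockout (red) above wild type (blue). All points lie below 0 in the interstitial gate, where Gdf10 is lowest (-2.61 and -2.49), and Cebpb and Cebpd lie to the right in the inflamed gate.

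At 2000 UMIs per cell the same order appeared in the share of cells with a UMI. Gdf10 was found in 5.45% of knockout and 5.97% of wild-type interstitial cells and in 32.4% and 25.5% of quiescent committed ones, against 1.07% and 1.73% of T-like cells. Pdgfra was found in 42.2% and 39.0% of interstitial cells and 66.9% and 52.8% of quiescent committed cells, against 2.24% and 5.07% of T-like cells. Pdgfrb was found in 13.5% and 12.8% of interstitial and 32.3% and 32.2% of quiescent committed cells. Both receptors were found together in 16.4% of knockout progenitor-like cells and 12.7% of wild-type ones, close to the 16.3% and 11.8% given by multiplying their separate shares. Cebpb and Cebpd were found together in 54.3% and 23.8%, against products of 51.2% and 20.02%. These shares left out 142 knockout and 424 wild-type progenitor-like cells of lower depth.

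**Figure D3:**
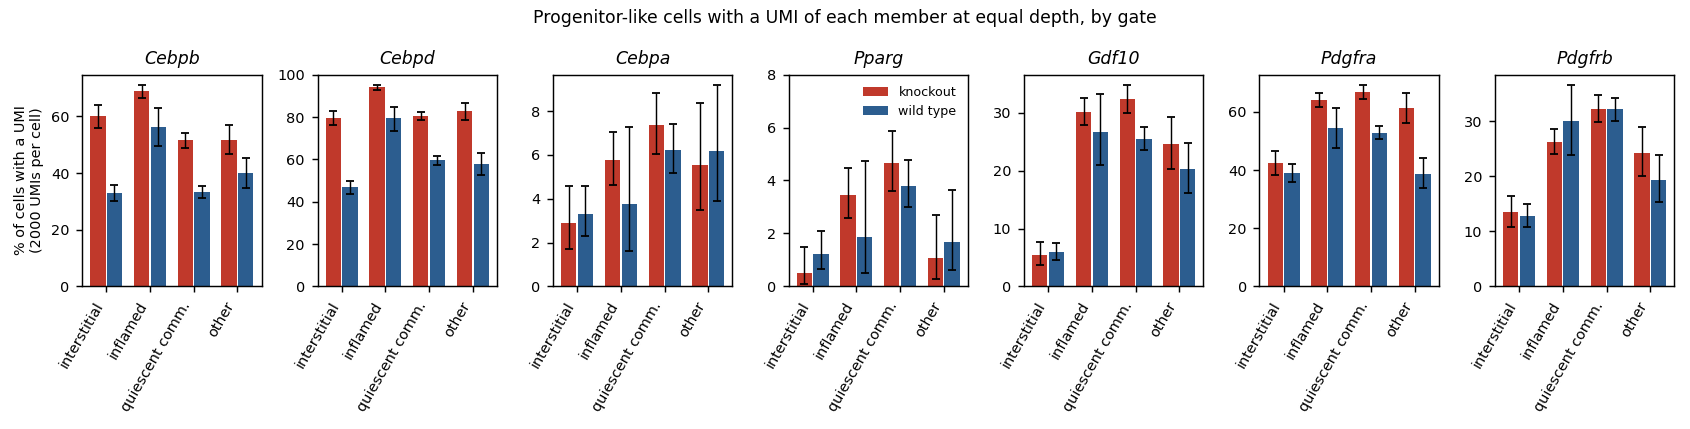
Percent of progenitor-like cells with at least 1 UMI of each member after every cell was thinned to 2000 UMIs, by gate, knockout (red) left of wild type (blue), with 95% binomial intervals. Interstitial cells have the lowest bars for Gdf10 (5.45% and 5.97%), and the knockout bars of Cebpb and Cebpd exceed those of the wild type in all 4 gates.

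Between genotypes, progenitor-like cells of the knockout library had more Cebpd and Cebpb, more Gdf10 and Pdgfra, and a near-equal level of Pdgfrb. Cebpd was at 2260 against 804 CPM, a log2 ratio of 1.49 (1.47 to 1.51). Cebpb was at 671 against 289 CPM, a ratio of 1.22 (1.18 to 1.25). Among 2687 genes averaging 50 CPM or more, with 30 UMIs or more in one library, 46 (1.71%) lay 2-fold or more higher in knockout cells and 63 (2.34%) lay 2-fold or more lower. Median-of-ratios scaling made these counts 58 higher and 49 lower. Of the 5 members in that set 2 were higher, Cebpd and Cebpb, and 0 lower; 15 genes had a larger ratio than Cebpd and 32 a larger one than Cebpb. The median log2 ratio was 0.74 over the 5 members and -0.06 over all 2687 genes. Cebpb was under 2-fold with equal weight per gate (0.85) and without barcodes carrying markers of another lineage (0.99).

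Gdf10 was at 197 against 118 CPM (0.74, 0.68 to 0.80) and Pdgfra at 546 against 353 CPM (0.63, 0.59 to 0.66). Cebpa, at 32.1 against 23.3 CPM, had a ratio of 0.46 (0.32 to 0.61), and Pparg, at 15.8 against 13.7 CPM, one of 0.20 (0.01 to 0.40). With equal weight per gate the Pparg ratio turned to -0.10. Pdgfrb had a ratio of -0.02 (-0.08 to 0.04), which became 0.12 under median-of-ratios scaling and 0.14 under TMM scaling, since those scalings raise every progenitor-like ratio by 0.14 and 0.16.

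Within gates the Cebpd ratio was 1.78 (1.73 to 1.83) in interstitial cells (1660 against 482 CPM), 0.96 (0.90 to 1.02) in inflamed cells (2622 against 1346 CPM), 1.16 (1.13 to 1.20) in quiescent committed cells (2145 against 957 CPM) and 1.55 (1.47 to 1.63) in the others. The Cebpb ratio was 1.28 (1.20 to 1.35), 0.64 (0.55 to 0.74), 0.89 (0.83 to 0.95) and 0.75 (0.62 to 0.89) in the same order. Both factors were thus higher in the knockout library in all 4 gates. Among the gates the ratio of each was lowest in inflamed cells, where the Cebpb interval overlapped that of the others. Differences between gates were not tested. The interstitial gate was unlike in make-up, as 347 of its 602 knockout and 131 of its 1121 wild-type cells also passed the inflamed limits. The part of those cells in the interstitial ratios was not tested. Past 2-fold higher lay 37 of 2643 genes (1.4%) in interstitial cells, with 2 of 4 members, 23 of 2677 (0.859%) in inflamed cells, with 0 of 5 members, and 24 of 2722 (0.882%) in quiescent committed cells, with 1 of 5. Pdgfra was higher in each gate by 0.27 to 0.77 and Gdf10 by 0.35 to 0.60. Pdgfrb was lower in inflamed cells (157 against 192 CPM, -0.29, -0.45 to -0.12) and in quiescent committed cells (202 against 224 CPM, -0.15, -0.23 to -0.08). It was also lower in the F3 gate (169 against 249 CPM, -0.56, -0.71 to -0.42), but not in interstitial (0.11) or other progenitors (0.21). Median-of-ratios and TMM scaling, which raised the ratios pooled over progenitors by 0.14 and 0.16, were not applied to these gate ratios. Cebpa had a ratio of 0.59 (0.39 to 0.78) in quiescent committed cells, while its other gate intervals included 0, as did all 4 of Pparg. In the overlapping F3 gate Pparg was lower, at 10.6 against 19.8 CPM (-0.90, -1.46 to -0.34).

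**Figure D4:**
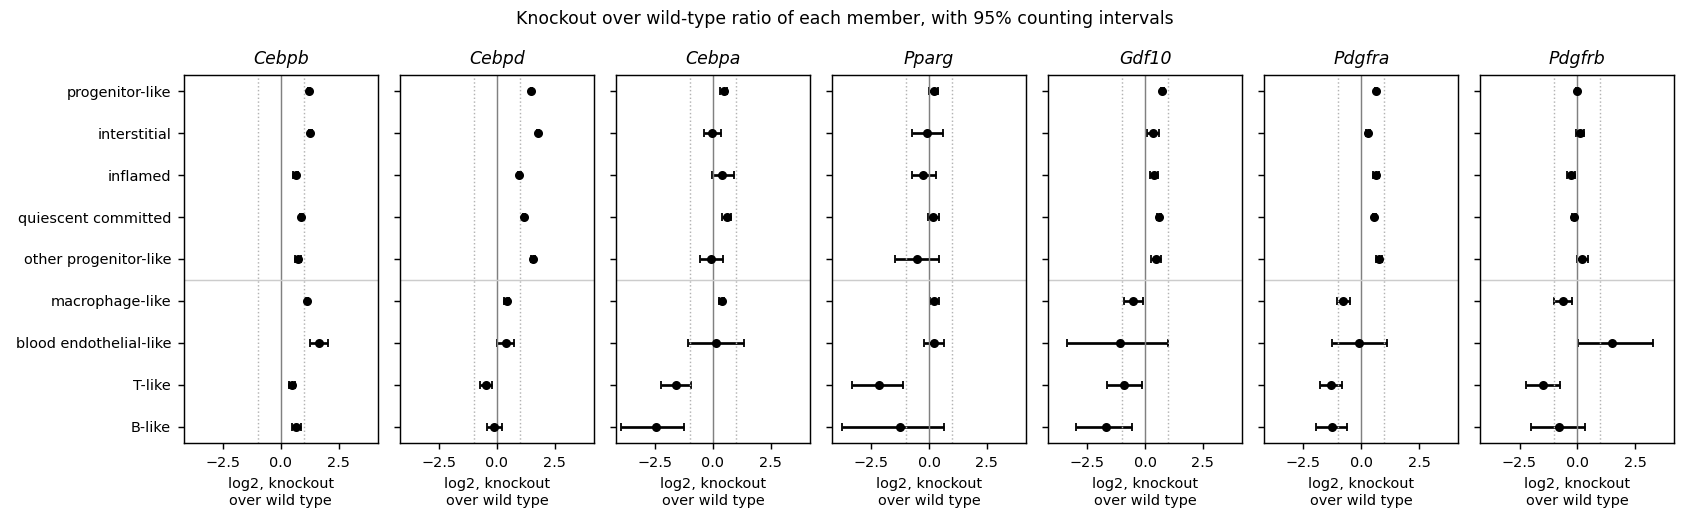
Knockout over wild-type ratio, as log2, of 7 members in progenitor-like cells, their 4 gates and 4 other classes, with 95% counting intervals; dotted lines mark 2-fold. Cebpd and Cebpb lie right of 0 in the 4 progenitor gates, and Pdgfra lies right of 0 in progenitors (0.63) and left of it in T-like cells (-1.32).

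The libraries also differed in how strongly inflamed their progenitors were, so levels were read over 5 ranges of the share of a cell's UMIs in the 7 inflamed markers. In cells under 0.05%, 572 knockout and 1164 wild-type, Cebpb was at 195 against 160 CPM (log2 0.28, 0.16 to 0.41) and Cebpd at 847 against 493 CPM (0.78, 0.71 to 0.85). Cebpb reached 908 CPM in the knockout and 447 CPM in wild type at 0.8% or more, with 916 and 64 cells. Its ratio ran from 0.72 to 1.02 in the 4 upper ranges, and that of Cebpd from 1.28 to 1.47. Pdgfra was instead highest in the least inflamed cells (618 and 416 CPM), and its ratio stayed between 0.57 and 0.78. In wild type Pdgfra lay between 319 and 340 CPM in the 4 upper ranges. Gdf10 was likewise highest in the least inflamed cells (259 and 160 CPM), with ratios of 0.33 to 1.10. In wild type Gdf10 was at 92.3 CPM in the third range but 136 CPM (106 to 173) in the last. Pdgfrb was lower in the third range than in the first in both libraries (154 against 213 CPM in the knockout, 130 against 195 CPM in wild type). In the last range it was at 128 CPM in the knockout and 144 CPM (113 to 182) in wild type. The Pdgfrb ratio lay between -0.18 and 0.25. By range the Cebpb and Cebpd ratios were thus lowest in the least inflamed cells, while among the gates they were lowest in inflamed cells. The inflamed gate leaves out cells that also pass the interstitial limits, and the ranges do not. Cells of 1 range share their library, and the ranges were set after the values were seen.

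**Figure D5:**
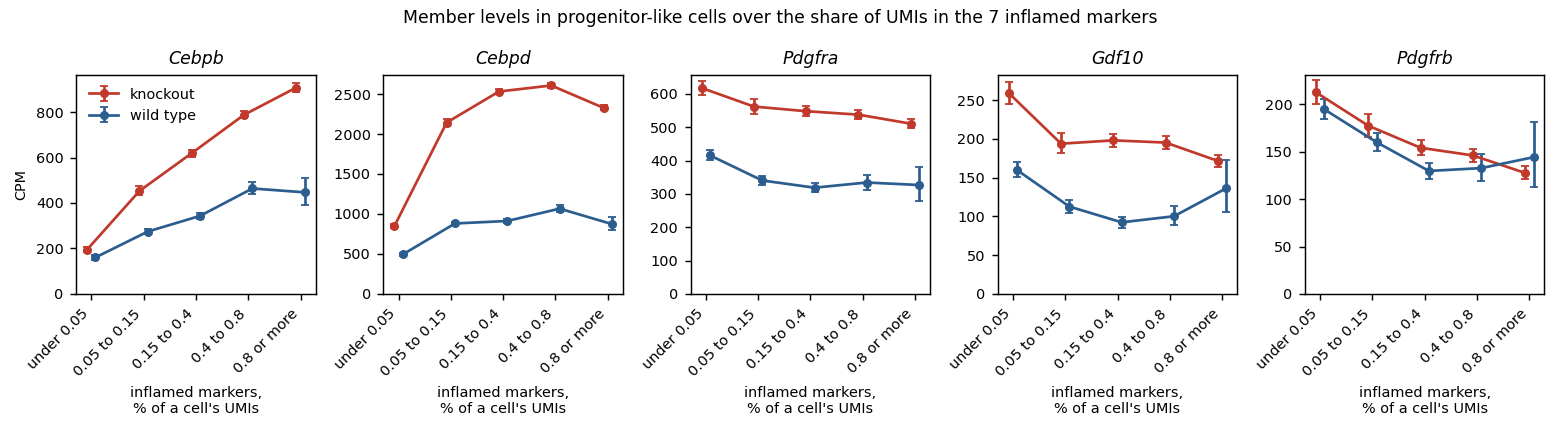
CPM of 5 members in progenitor-like cells, knockout (red) and wild type (blue), by the percent of a cell's UMIs in the 7 inflamed markers, with 95% counting intervals. Cebpb stands at 908 CPM in the knockout and 447 CPM in wild type in the last range, and the lines of Pdgfrb lie close together.

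In macrophage-like cells, where Camk2d was targeted, Cebpb was higher in the knockout library by 1.13 (1.08 to 1.17) on the log2 scale, Cebpd by 0.42 (0.33 to 0.51), Cebpa by 0.38 (0.28 to 0.49) and Pparg by 0.23 (0.05 to 0.42). The Cebpd value turned to -0.01 without barcodes carrying markers of another lineage, and the Pparg value to -0.06 at 2000 UMIs per cell. Cebpb was also higher in blood endothelial-like cells (333 against 107 CPM, 1.64, 1.25 to 2.05), natural killer-like cells (405 against 219.6 CPM, 0.88, 0.61 to 1.16, but -0.28 without barcodes carrying markers of another lineage), B-like cells (171 against 107 CPM, 0.67, 0.47 to 0.87) and T-like cells (239.7 against 172 CPM, 0.48, 0.35 to 0.61). A single knockout blood endothelial-like cell held 52 of the 289 Cebpb UMIs of that class, and a single wild-type one 13 of 65. At equal depth 30% (20.3 to 41.3) of knockout and 20.2% (12.6 to 29.8) of wild-type blood endothelial-like cells had a Cebpb UMI, with overlapping intervals. Pparg in blood endothelial-like cells differed by 0.21 with an interval across 0 (-0.21 to 0.63). Pdgfra, Pdgfrb and Gdf10 were lower in macrophage-like cells of the knockout library, with log2 ratios of -0.77, -0.62 and -0.51, beside a lower median share of progenitor markers there (0.0301% against 0.104% of UMIs), whose part in these values was not tested.

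Genes known to work with the members were read from lists in progenitor-like cells, counting those at a mean of 10 CPM or more. Over all 8006 such genes 77 lay 2-fold or more higher in knockout cells, 223 lower, and the median log2 ratio was -0.09. Of 12 early response genes, which PDGF, serum and cell handling all raise, 2 were past 2-fold higher, Myc (313 against 96.0 CPM, 1.70) and Zfp36 (3072 against 1068 CPM, 1.52), and 10 lay between, with a median of 0.64; Fos, the most abundant, was at 5071 against 3195 CPM (0.67). Their part in the Cebpb and Cebpd values was not tested. Of 15 PPARG target and fat storage genes 8 reached that level, with a list median of -0.50. Of these 2 were past 2-fold lower, Cd36, a fatty acid carrier (93.3 against 229.9 CPM, -1.30), and Plin2, a lipid droplet coat protein (94.9 against 215 CPM, -1.18). Lpl, the most abundant and also a marker of the committed gate, was at 766 against 926 CPM (-0.27). Macrophage markers took a median of 0.0106% of the UMIs of progenitor-like cells in the knockout and 0.0526% in wild type. The part of free RNA in the Cd36 and Plin2 values was not tested.

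None of the other lists had a gene past 2-fold among those at a mean of 10 CPM or more. Under that mean, Pdgfb (-2.13), Pdgfc (-1.50), Gata2 (-1.49) and Gata3 (-1.37) were past 2-fold lower. The part of free RNA from other classes in these values was not tested. Of 12 co-regulators of adipogenesis 8 were measured, and they had a median of 0.17, led by Klf4 at 3592 against 2542 CPM (0.50). Of 15 restrainers 11 were measured, and they had a median of -0.08, with Klf2 at 2393 against 1533 CPM (0.64) and Wnt10b at 7.82 against 13.8 CPM (-0.82). The 3 measured of 4 other C/EBP factors had a median of 0.07, with Cebpg at 65.0 against 54.6 CPM (0.25) and Ddit3 at 28.0 against 36.0 CPM (-0.36), and the 11 measured of 12 Notch, BMP and TGF-beta genes one of 0.08, with Tgfbr2 at 219.8 against 297 CPM (-0.44).

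Of the ligands of the PDGF receptors, Pdgfa, Pdgfb and Pdgfc had their highest levels outside progenitor-like cells in both libraries. Pdgfb was highest in blood endothelial-like cells, at 175 CPM (152 UMIs) in the knockout and 253 CPM (154 UMIs) in wild type, and macrophage-like cells had 55.7 and 59.4 CPM. Pdgfc was at 43.0 and 36.1 CPM in macrophage-like cells, Pdgfa at 22.2 and 28.5 CPM. Natural killer-like cells had 39.2 CPM of Pdgfa (26.4 to 56.0, 30 UMIs) in the knockout, against 7.61 CPM (2.79 to 16.6, 6 UMIs) in wild type. In progenitor-like cells Pdgfd, at 17.7 and 12.4 CPM (0.51) on 745 and 299 UMIs, was the single ligand with a mean over both libraries of 10 CPM or more. Blood endothelial-like cells had 27.7 CPM of Pdgfd (17.7 to 41.2, 24 UMIs) in the knockout and 18.1 CPM (9.01 to 32.3, 11 UMIs) in wild type. In progenitor-like cells Pdgfc stood at 3.86 and 10.9 CPM (-1.50), Pdgfb at 1.68 and 7.37 CPM (-2.13) and Pdgfa at 4.53 and 6.30 CPM (-0.48). Macrophage markers took a median of 0.0106% of the UMIs of these cells in the knockout and 0.0526% in wild type. The part of free RNA in these ligand values was not tested.

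Over the 16 profiles of 8 classes in 2 libraries, the genes whose log2(CPM + 1) followed each member most closely among 5394 were ranked by Pearson's r, as a description. They were Sult1a1, Kctd12b and Eng for Pparg (r 0.964 to 0.952), Tgfbi, Grn and Trf for Cebpa (down to 0.947), Casp4, Por and Tgfbr1 for Cebpb (0.908 to 0.824) and Gstm1, Pcolce and Thbd for Cebpd (0.959 to 0.944). Scn7a, Dcn and Fxyd1 were nearest to Gdf10 (0.993 to 0.979), Dpep1, Bicc1 and Scn7a to Pdgfra (0.988 to 0.986), and Ptgis, Col5a3 and Igsf10 to Pdgfrb (0.972 to 0.956). Adipoq and Dlk1 stayed under 50 CPM in every profile, and their nearest genes were Cracr2b, Fabp5 and Cd93, and Ptx3, Il6 and Ccl11. The highest Dlk1 profile, knockout progenitor-like cells, reached 0.616 CPM, and 2 inflamed cells held 14 and 11 of its 26 UMIs. The Dlk1 ranking thus rests on those cells. Profiles of 1 library share its depth and free RNA, and Pcolce and Dcn are among the markers that define progenitor-like cells.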

How the data were processed

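Single-cell 3' RNA-seq libraries, 1 from the Camk2d knockout and 1 from the wild type, were used as deposited: UMI counts per gene and barcode made by the authors with Cell Ranger 5.0.0 on the mouse build mm10, per the submitters' processing notes, which also name Seurat 4.1.1. Gene and barcode lists were deposited beside the counts. Whether the counting used strand is not given in the sources used here, and Cebpb, Cebpd, Cebpa, Pparg and Pdgfra overlap another annotated gene (GENCODE vM21), so reads of the overlap cannot be told apart.

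The members and lists were chosen with earlier results of these data known. Classes and gates required a least number of markers with a UMI and a least share of UMIs in them (for inflamed cells, 4 of 7 markers and 0.4%); these limits were set after seeing the data. No doublet caller was run: barcodes passing several classes were left out. UMIs were summed per class and library and given as CPM. Levels have exact Poisson, ratios exact conditional and shares Clopper-Pearson intervals, at 95%, computed in Python 3.11.15 with scipy 1.17.1. Intervals cover counting error only, as do floors of 3 counts. Named genes were the members, the 3 most similar genes of each, and from each list the most abundant gene and the one with the largest ratio; Zfp36 and Plin2 were named after their values were seen, being past 2-fold. Scripts were tested on simulated data. The alternatives were other scalings, cell filters, marker limits, weights, depths, CPM floors and folds. Promoters are RefSeq's, GRCm38.p6.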

Additional observations from a re-analysis of the deposited data

Results flagged for a closer look

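For 8 members the libraries differed in opposite directions in 2 of the 8 large cell classes, with both intervals off 0. The difference between classes was not tested. Pdgfra had a knockout over wild-type log2 ratio of 0.63 in progenitor-like cells and -1.32 in T-like cells, a gap of 1.95. Gdf10 had 0.74 and -0.91 in the same classes, a gap of 1.65, and Cebpa 0.46 and -1.61, a gap of 2.07. For Pparg the ratio was 0.23 in macrophage-like and -2.17 in T-like cells, a gap of 2.40; the macrophage-like value turned to -0.059 when thinned to 2000 UMIs. Cebpd had 1.53 in dendritic-like cells, at 1.35 times the matching level in the knockout and 1.48 times in wild type, and -0.48 in T-like cells, a gap of 2.01. A single knockout dendritic-like cell held 50 of the 145 Cebpd UMIs of that class, and at equal depth 9.33% of knockout and 7.89% of wild-type dendritic-like cells had a Cebpd UMI, with overlapping intervals. Cebpb had 1.64 in blood endothelial-like and -0.72 in erythroid-like cells, a gap of 2.36. A single knockout blood endothelial-like cell held 52 of the 289 Cebpb UMIs of that class. At equal depth 30% of knockout and 20.2% of wild-type blood endothelial-like cells had a Cebpb UMI, with overlapping intervals. The erythroid-like Cebpb value turned positive under 3 alternatives given below. Pdgfrb had 1.49 in blood endothelial-like cells (20 UMIs in the knockout, 5 in wild type) and -1.47 in T-like cells, a gap of 2.96. Adipoq had 0.81 in macrophage-like cells and -2.81 in progenitor-like cells (6 and 24 UMIs), a gap of 3.61. All mature adipocyte markers together stood at 55.5 CPM in knockout and 32.4 CPM in wild-type macrophage-like cells, and their part in the Adipoq value was not tested. At equal depth 0.742% and 0.383% of these cells had an Adipoq UMI, with overlapping intervals. Progenitor markers took a median of 0.0356% of the UMIs of T-like cells in the knockout and 0.159% in wild type, and their part in these gaps was not tested.

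Barcodes in no class, which enter no comparison, carried 8 of the 9 members. Their depth differed between libraries, with a median of 1155 UMIs in the knockout and 1832 in wild type. Cebpb stood at 721 CPM in the knockout and 234 CPM in wild type, Cebpd at 193 and 130 CPM, Cebpa at 45.7 and 42.7 CPM and Pparg at 23.1 and 22.1 CPM. Pdgfra stood at 47.5 and 66.8 CPM, Pdgfrb at 16.6 and 24.1 CPM, Gdf10 at 18.3 and 25.6 CPM and Adipoq at 1.63 and 2.52 CPM.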

How the results depend on the processing

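With 1 library per genotype nothing could be left out in turn. No paired analysis was possible because each genotype has a single library. A ratio was counted as turned only where its interval was off 0 and the alternative had the opposite sign. By this count 371 of 383 alternatives run over 39 knockout over wild-type ratios in classes did not turn, nor did 205 of 210 for the gate ratios. A ratio with an interval across 0, such as that of Pdgfrb in progenitor-like cells, could change sign without being counted. In progenitor-like cells the ratios ran over all alternatives from 1.29 to 1.66 for Cebpd, 0.85 to 1.38 for Cebpb, 0.49 to 0.90 for Gdf10, 0.58 to 0.79 for Pdgfra, 0.22 to 0.71 for Cebpa, -0.10 to 0.37 for Pparg and -0.09 to 0.14 for Pdgfrb.

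Values outside the counting interval, in progenitor-like cells, were these. TMM scaling gave 1.66 for Cebpd, 1.38 for Cebpb, 0.90 for Gdf10, 0.79 for Pdgfra, 0.63 for Cebpa and 0.14 for Pdgfrb. Median-of-ratios scaling gave 1.63 for Cebpd, 1.36 for Cebpb, 0.88 for Gdf10, 0.77 for Pdgfra and 0.12 for Pdgfrb. Leaving out barcodes with foreign markers gave 1.30, 0.99, 0.52, 0.58 and 0.71 for Cebpd, Cebpb, Gdf10, Pdgfra and Cebpa. Equal weight per gate gave 1.29, 0.85, 0.49, 0.59 and 0.27 for the same genes, -0.086 for Pdgfrb and -0.10 for Pparg. The mean of per-cell CPM gave 1.66 for Cebpd, 0.71 for Pdgfra, 0.29 for Cebpa and 0.092 for Pdgfrb. Thinning to 2000 UMIs gave 1.57 for Cebpd, 1.34 for Cebpb, 0.62 for Gdf10, 0.22 for Cebpa and 0.072 for Pdgfrb. Requiring 1 more marker gave 1.46 for Cebpd, and leaving Gm42418 (which overlaps ribosomal RNA) out of the totals, an alternative chosen after seeing the data, gave 1.52. A fold of 1.5 counted 134 genes higher and 158 lower, a mean of 20 CPM 62 higher and 119 lower, and median-of-ratios scaling 58 higher and 49 lower.

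Among ratios with an interval off 0, directions turned in these cases, beside the progenitor-like Pparg value under equal weight per gate. The cause was not tested. In macrophage-like cells Pparg was -0.059 when thinned and Cebpd -0.0077 without barcodes with foreign markers. In dendritic-like cells Cebpb was -0.45 without the deepest 5% and -0.72 when thinned, and in natural killer-like cells -0.28 without barcodes with foreign markers. In erythroid-like cells Cebpb was 0.93, 0.63 and 0.45 and Pdgfra 0.88, 0.59 and 1.90 under median-of-ratios scaling, TMM scaling and the stricter filter; those scalings move all genes of that class by 1.64 and 1.35. In the inflamed gate Pparg was -0.23 in wild type when thinned. With the inflamed gate taken before the interstitial one, chosen after seeing the data, Gdf10 was -0.26 in the knockout and -0.17 in wild type, Pdgfra -0.11 in the knockout and Pdgfrb -0.23 in wild type. Depth limits Adipoq, Dlk1 and all small classes.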
